A study of Mus with 6 samples.

Results

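Doc2a, Doc2b, Syt1, Syt2, Syt4, Syt5, Syt7, Syt9, Syt10 and Rph3a encode proteins with a pair of C2 domains, most of which bind calcium and act in vesicle release. These 10 genes were taken by gene name from the 54532 genes of a deposited expression table of the basolateral amygdala in wild-type (WT) and Cntnap4 knockout (KO) mice. Each name matched 1 row, and all 10 passed the filter of a mean of at least 1 FPKM, a read level taken relative to gene length and library size. The set was chosen on these same KO and WT values, Doc2b's among them, so the differences between groups are given for the members as a description, without a test.

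A C2 domain is a folded module that, in the calcium-binding members, holds calcium ions with acidic residues and then inserts into phospholipid membranes. Synaptotagmins are anchored in membranes, many of them in those of vesicles. Several couple the rise in calcium at a nerve terminal to fusion driven by the SNARE proteins. Doc2 proteins are soluble, bind calcium more tightly than the fast synaptotagmins and have been studied in spontaneous and asynchronous release. Rabphilin is recruited to vesicles by Rab3 GTPases.

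The labels gave 6 libraries from mice labelled female, 3 with the genotype Wild type and 3 with the genotype CNTNAP4-KO. They state neither strain, age nor the knockout allele, and no treatment. They do not say that each library came from its own animal, so the spread between libraries may be technical. Recovered reads came to between 15933029 and 17789798 per library, and the members rested on 52 reads (Syt10 in KO2) to 36253 reads (Syt1 in KO1). Cntnap4, the targeted gene, was at 3.53, 3.90 and 2.15 FPKM in WT1 to WT3 and at 1.08, 1.19 and 1.28 FPKM in KO1 to KO3. All its KO values lay below all WT values, as they did in 10.1% of genes tested. The ratio of its means, KO over WT, was 0.37. Cntnap4 did not pass the threshold of the limma fit given below (log2 difference -0.92, SE 0.18, limma adjusted p = 0.302).

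Libraries differed in regional and cell type markers. All 12 striatal markers were detected, and their summed level was 1079 FPKM in WT3 and 455.7 FPKM in KO3, against 86.6 to 234 FPKM in the other libraries. WT1 stood apart in another way. Its 8 oligodendrocyte markers summed to 234 FPKM, against 459 to 697 FPKM in the other libraries. It was the highest library for 7 meningeal markers, with a sum of 869.9 FPKM against 219 to 517 FPKM. The sum of 8 hippocampal markers was also highest in WT1, with 178 FPKM against 27.4 to 81.1 FPKM. Wfs1 alone was at 155 FPKM there, and Prox1, Trpc6, Lct and Dsp were not highest in WT1. The markers that define projection neurons of the labelled region were present in every library, with the glutamate transporter Slc17a7 at 201 to 364 FPKM and Rspo2, a marker of basolateral amygdala neurons, at 2.03 to 4.12 FPKM. The range of each member's difference without any 1 library is drawn in the plot of differences between groups.

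Doc2b was the member with the largest difference between the groups. Its level was 19.2, 12.2 and 11.2 FPKM in WT1, WT2 and WT3 and 3.55, 2.99 and 5.96 FPKM in KO1, KO2 and KO3. Every KO library was below every WT library, and KO3 was the highest of the KO group. The mean was 14.2 ± 4.34 FPKM in WT and 4.16 ± 1.58 FPKM in KO (SD, n = 3 each), a ratio of 0.293. On the scale of log2(FPKM + 1) the difference, KO minus WT, was -1.56 (SE 0.26). It was -1.34 without WT1 and -1.94 without both libraries numbered 3. Between 226 and 1564 reads per library stood behind these values.

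The gene (ENSMUSG00000020848) is annotated on the minus strand of chromosome 11 from 75768966 to 75796049, as the table gives it; GRCm38 and mm10 are the builds in the submitters' processing notes. Doc2b shares 1282 bases with the noncoding gene Gm12339 on the opposite strand, which was at 0.27 FPKM or less in every library. Values are per gene, so isoforms and exons cannot be told apart. In bulk tissue, fewer cells that express a gene and less RNA per cell cannot be told apart either.

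Doc2a, the paralog studied mainly at glutamatergic synapses, had another pattern. It was at 12.2, 11.6 and 4.27 FPKM in the WT libraries and at 12.2, 10.8 and 6.63 FPKM in the KO libraries, in the order of their numbers. The low values were those of WT3 and KO3, the libraries with the highest striatal marker levels, and the groups overlapped. The log2 difference was 0.15 (SE 0.38), -0.28 (SE 0.23) without WT3, 0.39 (SE 0.41) without KO3 and -0.04 (SE 0.12) without both libraries numbered 3. The part that striatal tissue plays in these values was not tested. Doc2a shares 1746 bases with Ino80e on the opposite strand, and Ino80e was at 2.32 to 3.26 FPKM. Without knowledge of whether the counting used strand, reads from the shared stretch cannot be assigned to 1 of them.

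The balance between the Doc2 paralogs differed between libraries. Doc2b made up 61.2%, 51.3% and 72.4% of the summed Doc2a and Doc2b FPKM in WT1, WT2 and WT3, and 22.5%, 21.6% and 47.3% in KO1, KO2 and KO3. The highest KO share, in KO3, came with the low Doc2a of that library. Their summed level was 23.5 ± 7.95 FPKM in WT and 14.06 ± 1.62 FPKM in KO, and KO1 at 15.8 FPKM lay above WT3 at 15.5 FPKM, so the sums overlapped.

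**Figure D1:**
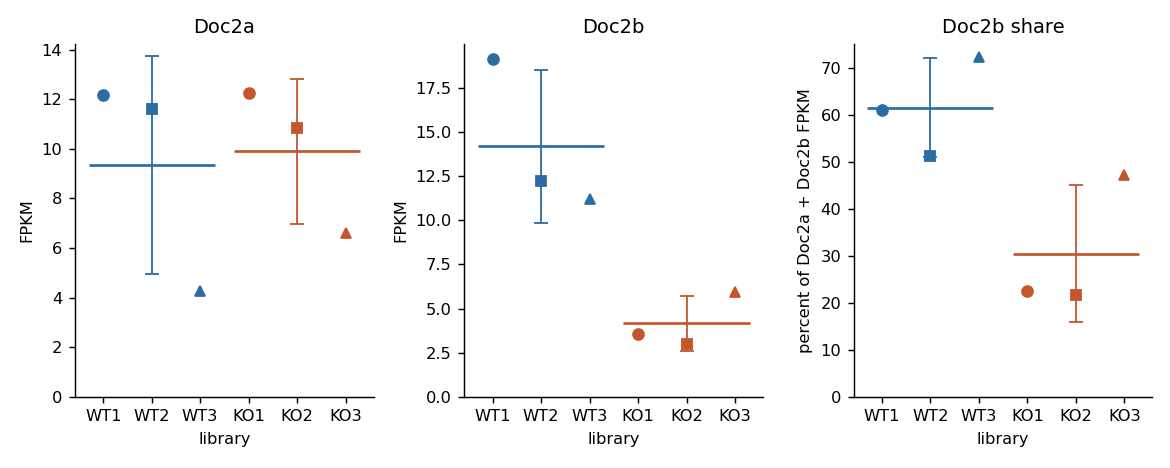
FPKM of Doc2a and Doc2b and the share of Doc2b in their sum (percent), by library, with the mean (line) and SD (bar) of each group of 3. Doc2b is at 11.2 FPKM or more in WT and at 5.96 FPKM or less in KO, while the low points of Doc2a are WT3 and KO3.

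Syt1, Syt2 and Syt9 are the synaptotagmins known to trigger fast synchronous release. Syt1, the main fast sensor of the forebrain, was the most abundant member in every library. It was at 127, 208 and 172 FPKM in WT1, WT2 and WT3 and at 265, 243 and 212 FPKM in KO1, KO2 and KO3. Every KO library was above every WT library, though KO3 exceeded WT2 by little. The log2 difference was 0.53 (SE 0.19), and 0.34 (SE 0.15) without WT1, the lowest library.

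Syt2, the fast sensor of the hindbrain and of parvalbumin interneurons, varied most between libraries. Its level was 0.88, 7.10 and 10.2 FPKM in WT1, WT2 and WT3 and 9.05, 13.0 and 10.9 FPKM in KO1, KO2 and KO3. WT1 was the library apart, with 126 reads against 869 to 1716 in the others. The log2 difference of 1.10 (SE 0.61) was 0.32 (SE 0.19) without WT1, and the groups overlapped in either case. Pvalb, the calcium buffer that names these interneurons, was at 5.19 FPKM in WT1 and at 32.5 to 57.5 FPKM elsewhere. Summed over 9 markers of fast-spiking interneurons, all of them detected, the level was 68.5 FPKM in WT1, 130 and 162 FPKM in WT2 and WT3, and 135 to 176 FPKM in KO. Lhx6, Tac1 and Cox6a2 of this list were not lowest in WT1, and the rest were. In WT1 these genes were at 5.70, 8.82 and 3.54 FPKM. Their lowest values were 4.83 (WT3), 3.385 (KO1) and 3.49 FPKM (KO1). The part of these cells in the Syt2 values was not tested. Syt2 shares 7936 bases with Ppp1r12b on the opposite strand, which was at 8.67 FPKM in WT1 and at 9.72 to 11.5 FPKM in the other libraries.

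Syt9, the fast sensor of limbic and striatal neurons, was high in WT1. It was at 5.97, 4.05 and 1.99 FPKM in WT1, WT2 and WT3 and at 2.46, 1.57 and 2.03 FPKM in KO1, KO2 and KO3. WT3 lay within the range of the KO libraries, so the groups overlapped. The log2 difference was -0.66 (SE 0.30), -0.38 (SE 0.25) without WT1 and -0.98 (SE 0.19) without WT3. The library with the lowest Syt2 was therefore the one with the highest Syt9. As a share of summed Syt1 and Syt2, Syt2 was 0.69% in WT1 and 3.30% to 5.59% in the other libraries.

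**Figure D2:**
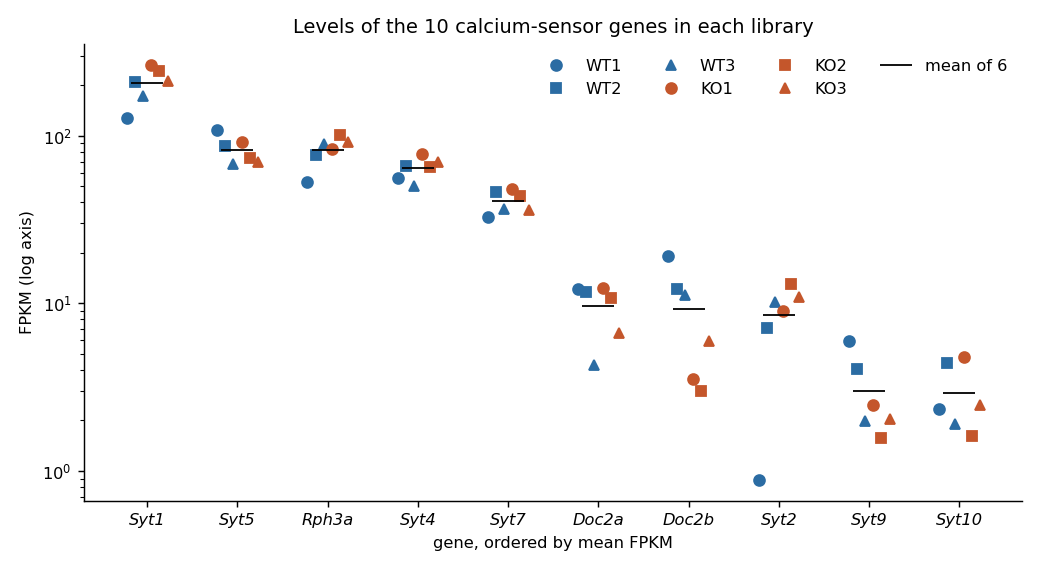
FPKM (log axis) of each member in each library, ordered by the mean of 6 (black bar); circles, squares and triangles mark libraries numbered 1, 2 and 3, blue WT and orange KO. Syt1 is highest throughout, Doc2b separates by group, and the lone low point of Syt2 at 0.88 FPKM is WT1.

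Syt7 is a high-affinity sensor of asynchronous release, facilitation and vesicle replenishment. It was among the most even members, at 32.7, 46.2 and 36.3 FPKM in WT and 48.0, 43.5 and 36.2 FPKM in KO, in the order of library numbers. The groups overlapped, with a log2 difference of 0.15 (SE 0.16) that was 0.05 without WT1 and 0.29 without WT2.

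Syt4, Syt5 and Syt10 have been studied on dense-core vesicles and other secretory granules. Syt4, whose first C2 domain lacks a calcium-binding acidic residue, was at 55.8, 66.1 and 50.2 FPKM in WT and at 77.6, 64.9 and 69.9 FPKM in KO. KO2 lay just below WT2, so the groups overlapped. The log2 difference was 0.30 (SE 0.13). Syt5 was at 108, 86.7 and 67.3 FPKM in WT and at 91.3, 73.2 and 69.3 FPKM in KO. Its log2 difference was -0.15 (SE 0.19) and ranged from -0.32 without WT3 to 0.02 without WT1. The names of Syt5 and Syt9 have been exchanged in part of the literature, and the symbols here are those of the table.

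Syt10, a sensor for secretion of the growth factor IGF-1 in olfactory neurons, was the least abundant member on average. It was at 2.35, 4.396 and 1.89 FPKM in WT1, WT2 and WT3 and at 4.75, 1.63 and 2.47 FPKM in KO1, KO2 and KO3. WT2 and KO1 were high and the other libraries low, in both groups. The log2 difference was 0.00072 (SE 0.33), with 52 to 144 reads per library, and it ranged from -0.31 without KO1 to 0.27 without WT2.

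Rph3a encodes rabphilin, a Rab3 effector that also binds the SNARE protein SNAP25. It was at 53.0, 76.6 and 89.4 FPKM in WT and at 83.3, 101 and 91.4 FPKM in KO, so KO1 lay below WT3. The log2 difference of 0.36 (SE 0.20) was 0.14 (SE 0.13) without WT1, 0.52 without WT3 and 0.52 without both libraries numbered 3.

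Among the 10 members, 7 had a positive and 3 a negative log2 difference, with a median of 0.15 beside 0.01 over all 13087 genes that passed the filter. In 1 member, Doc2b, all KO values lay below all WT values, as they did in 10.1% of genes tested. In 1 member, Syt1, all KO values lay above all WT values, as they did in 11.9% of genes tested. The remaining 8 overlapped. The rule that gave this set used the same contrast, so nothing is read from these counts.

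**Figure D3:**
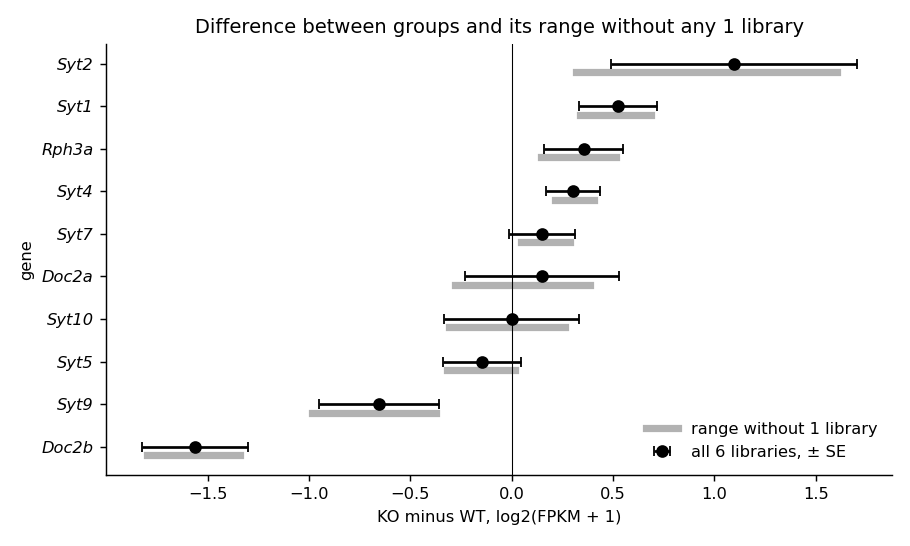
Difference between groups, KO minus WT on the scale of log2(FPKM + 1), with its SE (black) and the range of the difference when any 1 library is left out (grey). Doc2b stays between -1.80 and -1.34, Syt2 moves between 0.32 and 1.60, and the ranges of Doc2a, Syt5 and Syt10 cross 0.

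FPKM is per length, so levels can be set beside each other within libraries. Syt1 had a mean of 205 FPKM over the 6 libraries and stood above the next gene, Syt5, in 6 of 6 libraries with no overlap of ranges. Syt5 (82.6 FPKM) and Rph3a (82.5 FPKM) were not separable, each being higher in 3 libraries, and Syt4 (64.1 FPKM) overlapped with Rph3a. Syt7 followed at 40.5 FPKM, with a range below that of Syt4. Below a gap came Doc2a (9.62 FPKM), Doc2b (9.18 FPKM) and Syt2 (8.51 FPKM), whose ranges overlapped, and then Syt9 (3.01 FPKM) and Syt10 (2.91 FPKM), whose ranges did too. Syt9 also overlapped with Syt2, through the low Syt2 of WT1. The ranges of Doc2a (4.27 to 12.2 FPKM) and Doc2b (2.99 to 19.2 FPKM) overlapped with those of Syt9 and Syt10 as well. Without WT1 only 3 of the 10 genes kept their place by mean, and without WT2 or without KO1, 6 did. Syt1 made up 30.5%, 39.7% and 38.7% of the summed FPKM of the members in WT1, WT2 and WT3 and 44.3%, 43.8% and 41.9% in KO1, KO2 and KO3. The summed level of all 10 was 462 ± 54.8 FPKM in WT and 553 ± 45.03 FPKM in KO, with WT2 at 523 FPKM above KO3 at 507 FPKM.

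Other genes of the pathway were tested in the fit across all genes (limma on log2(FPKM + 1), two-sided, Benjamini-Hochberg adjusted over 13087 genes, threshold 0.05). In that fit 1 gene passed, 0.00764% of those tested, and it is Rps27a, a ribosomal fusion gene outside every list here. It did not pass with the replicate number as a block, where 0 genes passed. An unadjusted p under 0.05 was reached by 14.3% of genes. That share was 17.8% with the block, 14.8% with quantile normalization, 14.4% in voom and 14.6% without both libraries numbered 3. Without any 1 library it was 9.45% (WT1), 15.1% (WT2), 18.6% (WT3), 9.83% (KO1), 6.74% (KO2) and 11.8% (KO3).

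Of 20 other synaptotagmins and proteins related to them, 11 passed the filter, and 0 passed the threshold in limma or in voom on recovered reads. Without both libraries numbered 3, an unadjusted p under 0.05 was reached by 3 (27.3%, beside 14.6% over all genes). Without WT3 it was reached by 4 (36.4%, beside 18.6%) and without KO2 by 0 (beside 6.74%). In limma with all 6 libraries 1 reached it (9.09%, beside 14.3%). This gene was Sytl2, a Rab27 effector, at 4.03 ± 1.73 FPKM in WT and 7.37 ± 1.30 FPKM in KO (log2 difference 0.79, SE 0.28, limma adjusted p = 0.317), with all KO values above all WT values. Without WT1 its difference was 0.46 (SE 0.15). Syt13 was at 56.7 ± 8.60 and 70.9 ± 15.4 FPKM, and Syt14 at 1.79 ± 0.20 and 2.17 ± 0.15 FPKM. The list's median log2 difference was 0.13, beside 0.01 over all genes. Of these relatives Syt11, a synaptotagmin that does not bind calcium, had the highest level, at 144 to 169 FPKM, second by mean to Syt1 among the synaptotagmins listed here.

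Partners that bind Doc2 or rabphilin proteins included the priming factors Unc13a to Unc13d, the SNARE proteins and the Rab3 and Rab27 GTPases. Of 20 such genes 19 passed the filter, and 0 passed the threshold in limma or voom. In limma 4 (21.1%, beside 14.3% over all genes) reached an unadjusted p under 0.05, 3 higher and 1 lower in KO. The lower gene was Unc13c, a Munc13 priming factor. It was at 7.78, 5.83 and 7.999 FPKM in WT and at 2.37, 3.65 and 4.71 FPKM in KO. Its groups did not overlap (log2 difference -0.86, SE 0.21, limma adjusted p = 0.302). Unc13a, the main Munc13 of the forebrain, was at 26.1 ± 4.67 and 27.96 ± 1.09 FPKM.

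The partners with all KO values above all WT values included Snap25, the SNARE protein that rabphilin binds. It was at 252, 295 and 331 FPKM in WT and at 401, 420 and 412 FPKM in KO (log2 difference 0.50, SE 0.13, limma adjusted p = 0.302). Grin2a, an NMDA receptor subunit that rabphilin also binds, was at 8.06 ± 1.74 and 12.1 ± 0.51 FPKM (limma adjusted p = 0.302). Rab3a, the GTPase that recruits rabphilin, was at 246 ± 20.2 and 265 ± 27.6 FPKM. The median log2 difference of the 19 was 0.10, beside 0.01 over all genes, and 5 of them lay wholly higher and 2 wholly lower in KO. Over all genes tested, 11.9% lay wholly higher and 10.1% wholly lower.

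In the wider release machinery, 39 of 40 genes passed the filter, with Cplx4 listed at 0 in all libraries. In this list 0 genes passed the threshold in limma or voom. In limma 6 (15.4%, beside 14.3% over all genes) reached an unadjusted p under 0.05, all higher in KO. With the replicate block 11 did (28.2%, beside 17.8%) and without WT3 11 (28.2%, beside 18.6%). Without WT2 10 did (25.6%, beside 15.1%) and without KO2 3 (7.69%, beside 6.74%). Cadps, a priming factor of dense-core vesicles, was at 15.9 ± 1.92 FPKM in WT and 21.9 ± 1.47 FPKM in KO, the active zone scaffold Pclo at 10.6 ± 1.86 and 15.3 ± 1.14 FPKM, and the tomosyn Stxbp5l at 3.19 ± 1.28 and 5.77 ± 0.56 FPKM. Their limma adjusted p-values were 0.302, 0.302 and 0.303. The log2 difference of Stxbp5l was 0.74 (SE 0.22), and 0.50 (SE 0.15) without WT1. The list's median was 0.20, beside 0.01 over all genes, and 28 of 39 log2 differences were positive. The share of positive differences over all genes was not counted.

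Among 15 genes for cargo and processing of dense-core vesicles 14 passed the filter, and 0 passed the threshold in limma or voom. In limma 1 (7.14%, beside 14.3% over all genes) reached an unadjusted p under 0.05. With the replicate block 5 did (35.7%, beside 17.8%), without WT3 3 (20%, beside 18.6%) and with quantile normalization 3 (21.4%, beside 14.8%). Without KO3 2 did (14.3%, beside 11.8%), and 0 did in voom or without WT1, KO1 or KO2. The 1 gene was Baiap3, a Munc13 relative with C2 domains that acts in dense-core vesicle traffic. It was at 20.6, 11.0 and 1.53 FPKM in WT1, WT2 and WT3 and at 0.96, 0.65 and 2.52 FPKM in KO1, KO2 and KO3. WT1 and WT2 stood apart from the rest, and WT3 lay within the KO range (limma adjusted p = 0.325). Its log2 difference was -1.95 (SE 0.74), -1.29 (SE 0.66) without WT1 and -2.84 (SE 0.37) without WT3. Pcsk2, a prohormone convertase, was at 48.5 ± 4.49 and 61.4 ± 10.4 FPKM, and the carboxypeptidase Cpe at 987 ± 65.9 and 843 ± 58.4 FPKM.

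Genes beside Doc2b on chromosome 11 were compared in the same way. Within 500 kb of its midpoint the table lists 37 other genes, 21 of which passed the filter. Of these 21, 0 lay wholly lower in KO (every KO library below every WT library) and 3 wholly higher. Over all genes tested, 10.1% lay wholly lower and 11.9% wholly higher. The median log2 difference of the 21 was 0.03, beside 0.01 over all genes. In limma and in voom 0 of the 21 passed the threshold. Without WT2, without WT3 or without both libraries numbered 3, 4 reached an unadjusted p under 0.05. Those were 19%, 19% and 20%, beside 15.1%, 18.6% and 14.6% over all genes. In limma with all 6 libraries 2 did (9.52%, beside 14.3%), and both were higher in KO. They were the inositol phosphatase Inpp5k, at 5.53 ± 0.31 FPKM in WT and 7.19 ± 0.47 FPKM in KO, and the antisense transcript Gm45606, at 3.34 ± 1.23 and 5.64 ± 0.27 FPKM (limma adjusted p = 0.303 each). Ywhae, the 14-3-3 gene next to Doc2b, was at 260.4 ± 33.2 and 243 ± 17.3 FPKM. On the other side lies Rph3al, a rabphilin-like gene without C2 domains. It was at 0.87, 0.82 and 0.33 FPKM in WT and 0.38, 0.05 and 0.16 FPKM in KO, below the filter and with KO1 above WT3.

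Likeness to Doc2b across the 6 libraries was measured as the root mean square (RMS) difference of log2(FPKM + 1) values after each gene was centred on its own mean. The 5 nearest of 13077 genes were Car12, Cmbl, Smpdl3b, Lnp1 and Ano2, with RMS differences of 0.14, 0.15, 0.22, 0.23 and 0.23, beside a median of 0.87 over all genes. That median is close to 0.85, the RMS of Doc2b about its own mean, which a gene level in all libraries would score. Car12, a membrane carbonic anhydrase, was at 4.96, 3.18 and 2.04 FPKM in WT and 0.45, 0.33 and 1.31 FPKM in KO. Cmbl, a hydrolase, was at 13.5, 8.98 and 7.20 FPKM in WT and 2.86, 1.62 and 4.99 FPKM in KO. Like Doc2b, both were highest in WT1 and, within KO, highest in KO3. Ano2, a calcium-activated chloride channel, was at 3.17, 2.503 and 1.51 FPKM in WT and 0.45, 0.04 and 0.96 FPKM in KO. The measure includes the difference between the groups, which chose Doc2b, so it describes these libraries only.

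The nearest gene to Syt2 was Pvalb, with an RMS difference of 0.15 beside a median of 0.98 and 0.97 for Syt2 about its own mean. Kcnab3, a potassium channel subunit, followed at 0.15, and Cabyr at 0.22. All of them had their lowest value in WT1, where Kcnab3 was at 3.49 FPKM against 16.7 to 35.1 FPKM elsewhere. The nearest genes to Syt10 were Btg2, an antiproliferation gene, at 0.09, the salt-inducible kinase Sik1 at 0.11 and Rtp1 at 0.13, beside a median of 0.45. The RMS of Syt10 about its own mean was 0.43. Sik1 was at 4.50, 9.71 and 4.16 FPKM in WT and at 8.92, 4.28 and 4.82 FPKM in KO, and Btg2 at 6.997, 10.8 and 5.98 FPKM in WT and at 12.1, 4.60 and 7.83 FPKM in KO. In Btg2, Sik1 and Rtp1, as in Syt10, WT2 and KO1 were the highest libraries.

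**Figure D4:**
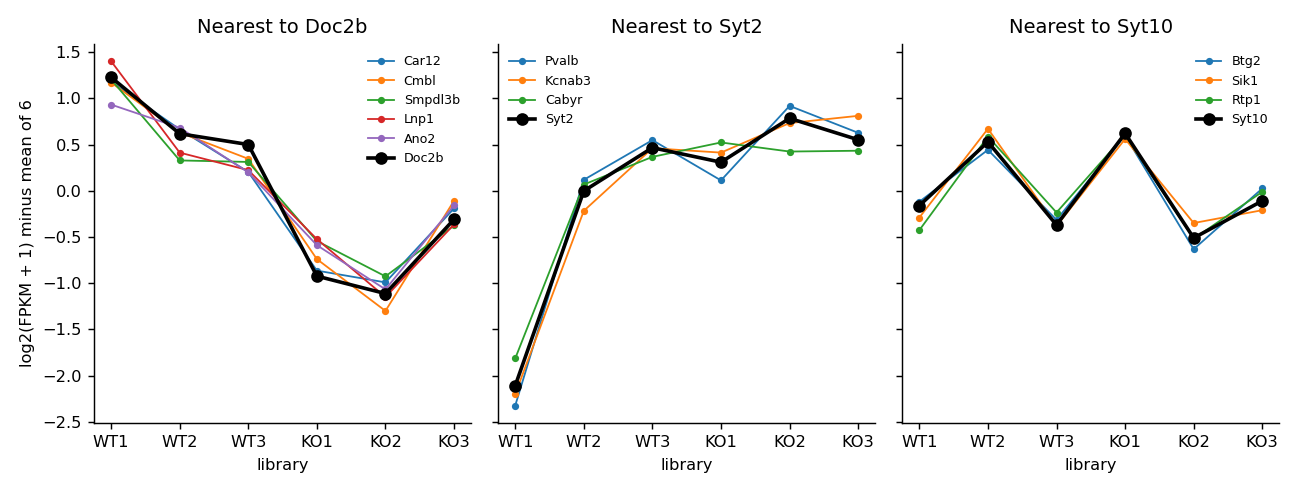
Values of log2(FPKM + 1) minus the gene's mean of 6 for Doc2b, Syt2 and Syt10 (black) and the genes nearest to each by RMS difference (colours), by library; lines only join points of 1 gene. The Doc2b panel separates WT from KO, the Syt2 panel separates WT1 from the rest, and the Syt10 panel peaks in WT2 and KO1.

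Some regional markers were high where Doc2b was high, and others were not. Lmo3, a transcriptional cofactor used here as a marker of amygdala projection neurons, was at 61.7, 27.9 and 33.5 FPKM in WT and at 16.4, 21.0 and 24.9 FPKM in KO, with no overlap (limma adjusted p = 0.303). Its log2 difference was -0.89 (SE 0.29), and -0.56 (SE 0.19) without WT1. Tbr1 and Neurod6, transcription factors of cortical excitatory neurons, lay wholly the other way. Tbr1 was at 28.5 ± 7.93 and 46.1 ± 6.43 FPKM and Neurod6 at 14.1 ± 6.13 and 30.02 ± 3.67 FPKM. Over the whole list of 12 projection neuron markers the sum was 906 to 982 FPKM in WT and 846 to 1115 FPKM in KO. In that list 12 of 12 were detected, 1 lay wholly lower and 3 wholly higher in KO, and 0 passed the threshold in limma. Over all genes tested, 10.1% lay wholly lower and 11.9% wholly higher.

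The 10 central amygdala markers, all detected, summed to 300 to 497 FPKM in WT and 235 to 279 FPKM in KO. Of these 2 lay wholly lower, the neuropeptide gene Sst and the receptor gene Calcrl. Sst, which is also an interneuron marker, was at 433, 277 and 237 FPKM in WT and at 210.2, 189 and 219 FPKM in KO, and without it the central markers summed to 62.7 to 64.4 and 45.6 to 59.4 FPKM. Cyp26b1, a retinoic acid hydroxylase whose groups overlapped, was at 7.40, 2.87 and 1.21 FPKM in WT and at 0.49, 0.52 and 1.24 FPKM in KO. The means of Tac2, Cartpt, Nts and Prkcd were also lower in KO, with overlap. Ezr, Crh and Pdyn were instead lowest in WT1. Their means were 19.3, 5.85 and 12.9 FPKM in WT and 21.3, 5.94 and 12.8 FPKM in KO. The 10 hypothalamic markers summed to 4.95 to 36.4 FPKM in WT and 2.22 to 4.50 FPKM in KO, with Oxt, Gal, Hcrt, Pmch and Sim1 at 0 in at least 1 library. Microglial markers, 5 of 9 of which lay wholly lower in KO, summed to 145 to 196 FPKM in WT and 97.6 to 119 FPKM in KO. Markers of oligodendrocyte precursors, 5 of 6 of which lay wholly lower, summed to 32.6 to 48.6 and 21.3 to 26.6 FPKM. Over all genes tested, 10.1% lay wholly lower. Interneuron markers summed to 629 to 774 FPKM in WT and 574 to 636 FPKM in KO, and without Sst to 341 to 392 and 364 to 417 FPKM. Meningeal markers summed to 335 to 869.9 FPKM in WT and 219 to 419.6 FPKM in KO, and hippocampal markers to 39.5 to 178 and 27.4 to 71.0 FPKM. Both sums were highest in WT1, as Doc2b was. Unlike Doc2b, both sums were higher in KO1 than in WT3 and lowest in KO3. In WT1 Ptgds gave 810 FPKM of the meningeal sum and Wfs1 155 FPKM of the hippocampal sum. By the mean log2 deviation over genes, the meningeal list was lowest in KO2 (-0.61), not in KO3 (-0.54). Wholly lower in KO were also 3 of 10 hypothalamic, 2 of 12 interneuron, 1 of 7 meningeal and 1 of 8 hippocampal markers. Of the interneuron markers 1 lay wholly higher, and of the hypothalamic markers only 2 passed the filter. Of the 3 hypothalamic markers wholly lower, Pomc and Sim1 were below the filter, whereas the share of 10.1% is over genes past it. The part of these regions and cell types in the Doc2b difference was not tested.

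**Figure D5:**
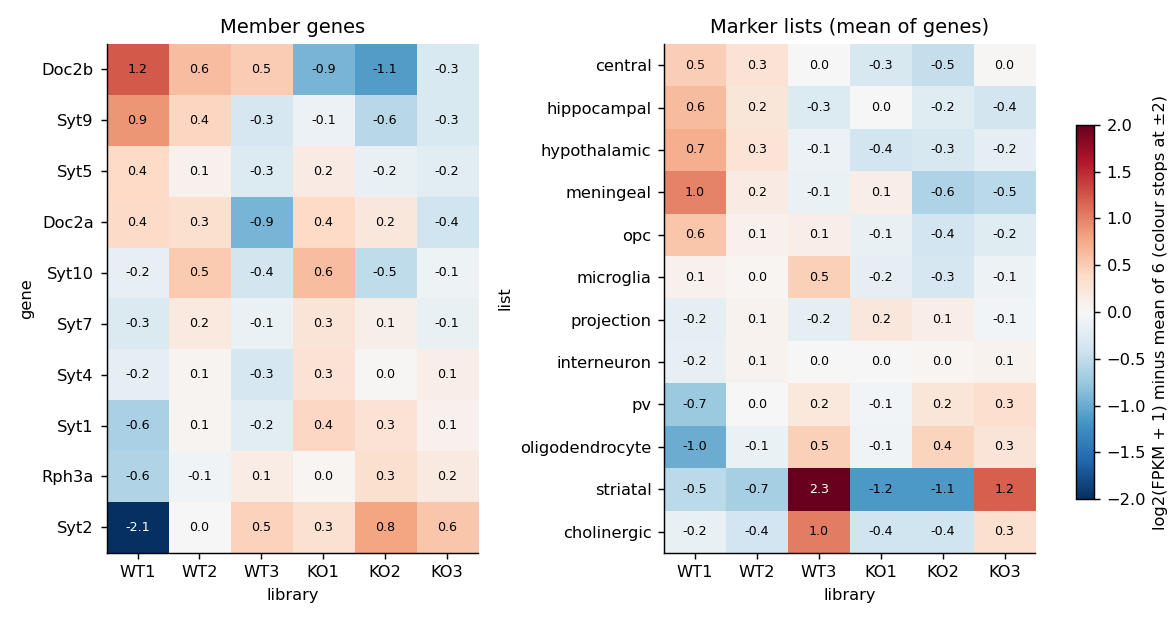
Deviation from the mean of 6 libraries, on the scale of log2(FPKM + 1), for each member (left) and for the mean over each marker list (right), with the value in each cell. WT3 and KO3 are highest for striatal markers and lowest for Doc2a, WT1 is lowest for the fast-spiking (pv) markers and for Syt2, and Doc2b is above its mean in all WT and below it in all KO libraries.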

How the data were processed

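The deposited table holds FPKM, made by the authors and scaled by library size. Not given in the sources used here are the annotation version, the aligner, the counter and whether strand was used. FPKM times gene length gave whole multiples of 1 step for 100% of values above 0 (tolerance 0.01), so reads were recovered. Genes with a mean of at least 1 FPKM (13087) were fitted as log2(FPKM + 1) with limma 3.58.1 in R 4.3.3 (variance trend, two-sided, Benjamini-Hochberg adjusted over all genes, threshold 0.05), after the code was tested on simulated data. The labels number the libraries 1 to 3 in each group without saying what a number marks. Same-numbered libraries deviated together from their group means across genes (correlations of 0.17, 0.15 and 0.33), but WT2 and KO1, which share no number, did so at 0.28, above 2 of those 3. A fit with the replicate number as a block was an alternative, beside pseudocount, filter, scaling, voom and leaving out libraries. With 3 libraries against 3 an exact permutation p cannot go below 0.1. The members and gene lists were chosen with earlier results of these data known. Named beside the members were the 3 genes of smallest p of each pathway list, genes within 500 kb of Doc2b and the genes nearest to Doc2b, Syt2 and Syt10; Rps27a, Unc13a, Rab3a and Syt11 were named after their values were seen. Some marker genes are not reported here.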

Additional observations from a re-analysis of the deposited data

How the results depend on the processing

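The difference of Doc2b was negative in all 13 alternatives, from -1.80 to -1.34 without any 1 library and from -1.94 to -1.51 in the others. The sign of Syt1, Rph3a, Syt4, Syt7, Syt2 and Syt9 was also the same in all 13, while Syt5 changed sign in 1, Doc2a in 3 and Syt10 in 6. No member moved by more than its SD within groups. Genes past the threshold numbered 1 in the fit as reported, 0 with no filter, 0 with quantile normalization, 0 with the replicate block and 0 to 9 without any 1 library (9 without WT3). The replicate block changed no other call. All 5 lists had 0 genes past the threshold in every alternative. By mean level, 3 to 10 of the members kept their place without any 1 library. Leaving out both libraries numbered 3 was chosen after seeing the data. Few reads limit Syt10 and Syt9, at 52 and 108 in their lowest library.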
